A study of Macaca mulatta with 2 samples.

Results

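The transcripts described here encode 5 neurotrophic factors, *BDNF*, *NTF3*, *CNTF*, *LIF* and *GDNF*, and 4 receptors for such factors, *NTRK2*, *NTRK3*, *NGFR* and *CNTFR*. They were chosen by gene symbol, and all 9 were among the 16684 genes of the deposited table. The samples were optic nerves of wild-type, untreated *Macaca mulatta*, collected postmortem, with 2 RNA-seq libraries of 1 condition named Rep1 and Rep2. The methods name an adult male as the donor, whereas the series description gives different macaques for the nerves, so the libraries may come from 1 animal or from 2. The whole nerve was sequenced, with axons, glia, vessels and sheath together, and a lower level in such RNA can come from fewer cells of a type or from less RNA per cell, which cannot be told apart. Levels are given in TPM, a read number divided by gene length and scaled to the same total in each library, so that levels of different genes can be set side by side. With 1 condition, no groups were compared and no p-value was computed.

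Neurotrophic factors are proteins that keep neurons and glia alive and guide their growth. *BDNF* and neurotrophin-3, the product of *NTF3*, bind the receptor tyrosine kinases TrkB (*NTRK2*) and TrkC (*NTRK3*), and all neurotrophins also bind p75 (*NGFR*), a receptor of the tumor necrosis factor receptor family. *CNTF* binds the anchored subunit encoded by *CNTFR*, which then recruits the signalling chains *LIFR* and *IL6ST*, whereas *LIF* uses *LIFR* and *IL6ST* without *CNTFR*. *GDNF* binds the co-receptor *GFRA1*, which signals through the kinase *RET* or through *NCAM1*. In the visual system these factors are known for their support of retinal ganglion cells, whose axons form the optic nerve and whose cell bodies lie in the retina.

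The libraries stood apart, and this bears on every level below. Rep1 was shallower, with 1 read there giving the TPM of 17.2 reads in Rep2, and this constant gave whole read numbers for 99.9% of the 10168 genes above 0 in both. Rep1 listed 38.5% of genes at 0 and Rep2 12.5%. Across genes above 0 in both, Rep2 was higher by a median of 1.19 on the log2 scale. The markers of the labelled tissue were present, with all 8 oligodendrocyte markers above 0 in both libraries and summing to 46003 TPM in Rep1 against 212271 TPM in Rep2. The 8 astrocyte markers summed to 1148 and 7342 TPM. In contrast, 7 of 8 photoreceptor markers were higher in Rep1, and the list summed to 3582 TPM there and 5.72 TPM in Rep2. The 6 markers of neurons and retinal ganglion cells summed to 2047 TPM in Rep1 against 119 TPM in Rep2, with 3 of them higher in Rep1, 2 higher in Rep2 and *SLC17A6* at 0 in both. Nearly all of the sum in Rep1 came from the synaptic genes *SNAP25*, at 1122 TPM, and *SYT1*, at 769 TPM, which were at 4.99 and 11.8 TPM in Rep2. Most of the sum in Rep2 came from the ganglion cell marker *RBPMS*, at 155 TPM in Rep1 against 99.9 TPM in Rep2. The ganglion cell gene *POU4F1* was at 0 in Rep1 and 0.0127 TPM in Rep2.

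A gene's TPM sums over all of its annotated transcripts, which matters for the Trk receptors. RefSeq places 8 transcripts at *NTRK2* and 10 at *NTRK3*, and short forms of both are known that end after the membrane span and lack the kinase. The coding ends of *NTRK2* forms X7 and X5 and of *NTRK3* form X8 are shown here, read from the Mmul_10 transcripts. The levels below cannot separate the forms. Other annotated short forms are not shown. *NTRK2* form X6 has the same end as X5, and *NTRK3* form X7 closes with the bases of X8. *NTRK3* form X6 has another end, and *NTRK2* form X4 and *NTRK3* form X5 have no coding end of their own. Lower case marks the last 15 coding bases shared with the long form, capitals mark the short form's own coding end, and the long form is given from the same base.
NTRK2 short form X7, own end at chr15:100133111-100133145, plus strand: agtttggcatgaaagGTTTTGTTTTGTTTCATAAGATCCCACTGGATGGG
NTRK2 long form X1, at the place where X7 departs: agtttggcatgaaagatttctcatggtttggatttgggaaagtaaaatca
NTRK2 short form X5, own end at chr15:100201382-100201407, plus strand: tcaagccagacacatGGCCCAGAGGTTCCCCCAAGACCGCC
NTRK2 long form X1, at the place where X5 departs: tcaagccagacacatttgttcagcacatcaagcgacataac
NTRK3 short form X8, own end at chr7:66753168-66753283, minus strand: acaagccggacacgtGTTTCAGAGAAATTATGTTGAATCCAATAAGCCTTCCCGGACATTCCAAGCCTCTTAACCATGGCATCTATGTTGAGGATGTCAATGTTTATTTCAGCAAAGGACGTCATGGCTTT
NTRK3 long form X9, at the place where X8 departs: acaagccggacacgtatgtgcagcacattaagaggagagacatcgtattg
The short *NTRK2* form X7 shares 1396 coding bases with the long form and adds 35 of its own, and X5 shares 1633 and adds 26. The short *NTRK3* form X8 shares 1585 coding bases and adds 116. The annotated *NTRK2* transcripts run from 3695 to 9241 bases and those of *NTRK3* from 2031 to 7994 bases, so the TPM of both genes also depends on the length that was used.

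*NTRK2*, the receptor of BDNF, had the highest mean deposited level of the 9 genes, whereas *CNTFR* came first at 52.4 TPM against 43.5 TPM after the libraries were scaled by the median of ratios over genes above 0 in both. *CNTFR* also came first with Rep1 scaled to nerve markers, that is, by the median ratio of the oligodendrocyte and astrocyte markers between the libraries. *NTRK2* lies on chromosome 15 of Mmul_10 from 99990494 to 100359555. Its level was 21.8 TPM in Rep1 against 81.6 TPM in Rep2, a mean of 51.7 ± 42.2 TPM (SD, n = 2), at percentile 80.5 among the 14693 genes that either library held above 0. Rep2 was thus the high library, and the values rested on at least 124 reads in Rep1 and 7959 in Rep2. *NTRK3*, the receptor of neurotrophin-3, lies on chromosome 7 from 66645145 to 67034967 on the minus strand. It was at 5.87 TPM in Rep1 against 52.6 TPM in Rep2, with a mean of 29.2 ± 33.0 TPM (SD, n = 2) at percentile 70.9, from at least 1 and 154 reads. Both Trk receptors stood higher in Rep2 in deposited TPM, though *NTRK2* did not with Rep1 scaled to nerve markers, and within each library *NTRK2* was above *NTRK3*, by 3.72 times in Rep1 and 1.55 times in Rep2.

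*NGFR* (chromosome 16, 47276730 to 47296964, minus strand), which encodes p75, was the member whose libraries lay closest together in deposited TPM, though with Rep1 scaled to the nerve markers its log2 difference was -1.69 (Rep2 minus Rep1) and that of *CNTF* was the smallest at -0.11. It was at 2.15 TPM in Rep1 against 2.90 TPM in Rep2, with a mean of 2.53 ± 0.536 TPM (SD, n = 2) at percentile 29.9, from at least 4 and 93 reads. In both libraries p75 was thus the lowest of the 4 receptors. *NTRK2* exceeded *NGFR* by 10.2 times in Rep1 and 28.1 times in Rep2, and *NTRK3* exceeded it by 2.73 and 18.1 times. p75 is well known from Schwann cells, which wrap peripheral nerves. Of the 6 Schwann cell markers, 4 were at 0 in Rep1, and their sum was 5.54 TPM in Rep1 against 85.9 TPM in Rep2. The part of such cells in the *NGFR* level was not tested.

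**Figure D1:**
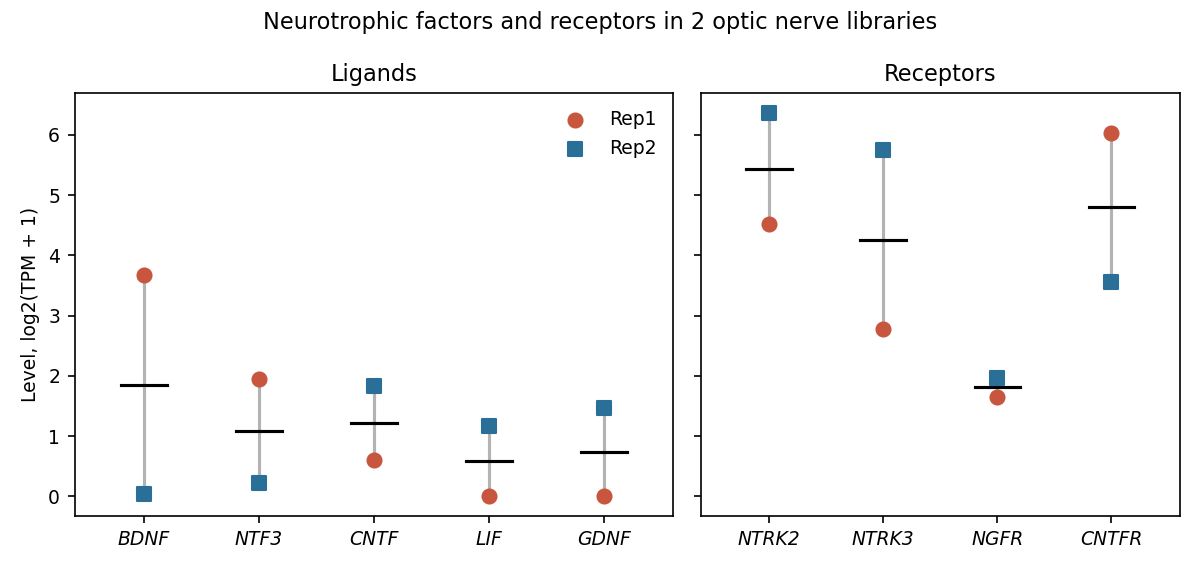
Level of each ligand (left) and receptor (right) on the log2(TPM + 1) scale, with Rep1 as red circles, Rep2 as blue squares and the mean of both as a black bar. *BDNF*, *NTF3* and *CNTFR* have the red circle on top, the other 6 genes have the blue square on top (for *CNTF*, *NTRK2* and *NGFR* this order depends on the scaling), and *LIF* and *GDNF* lie at 0 in Rep1.

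Of the ligands, *BDNF* differed most between the libraries. It lies on chromosome 14 from 37727375 to 37797626 on the plus strand, with 5 annotated transcripts. *BDNF* was at 11.8 TPM in Rep1 against 0.0285 TPM in Rep2, a mean of 5.90 ± 8.30 TPM (SD, n = 2) with an SD above the mean. The smallest read numbers with this ratio were 24 in Rep1 and 1 in Rep2. The true numbers can be any multiple of these, and amplified reads of 1 molecule are not independent. *BDNF* sat at percentile 66.8 of the genes in Rep1 and at 1.24 in Rep2. *NTF3* (chromosome 11, 5563736 to 5627915, plus strand) was at 2.84 TPM in Rep1 against 0.165 TPM in Rep2, with a mean of 1.5 ± 1.89 TPM (SD, n = 2). Its values are those of equal read numbers in both libraries, so the higher TPM in Rep1 is what the same number of reads gives in the shallower library. Set against its receptor in the same library, *BDNF* was 0.539 times the level of *NTRK2* in Rep1 and 0.000350 times in Rep2. *NTF3* was 0.484 times the level of *NTRK3* in Rep1 and 0.00314 times in Rep2. In both libraries the ligand was therefore below the receptor, and the distance between them differed widely. Beside these higher values of *BDNF* and *NTF3* in Rep1 stand 7 of 8 photoreceptor markers and 3 of 6 neuronal markers, *SNAP25* and *SYT1* among them, that were also higher there, and their part in the result was not tested.

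*CNTF*, a cytokine made by Schwann cells and astrocytes, lies on chromosome 14 from 15050526 to 15057473 on the minus strand and has 1 annotated transcript. It was at 0.524 TPM in Rep1 against 2.56 TPM in Rep2, a mean of 1.54 ± 1.44 TPM (SD, n = 2) at percentile 24.2, from at least 1 and 84 reads. *LIF* (chromosome 10, 21292067 to 21304985, plus strand), a cytokine that signals to glia and neurons, had no listed level in Rep1 (0) and 1.26 TPM in Rep2. Among the 200 genes closest to *LIF* in Rep2, 66.0% were also listed at 0 in Rep1, so a 0 was common at this level and does not show absence. The annotation places an uncharacterized noncoding gene on the opposite strand over 92 bases of *LIF*, introns included. Whether exons overlap there was not checked. Any reads from that stretch could not be told apart, since the library kit does not mark strand.

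*CNTFR*, on chromosome 15 from 49613844 to 49652519 on the plus strand, was the highest member in Rep1 and the third in Rep2. It was at 64.6 TPM in Rep1 against 10.8 TPM in Rep2, with a mean of 37.7 ± 38.1 TPM (SD, n = 2) at percentile 75.5, from at least 125 and 359 reads. The chains that complete its receptor went the other way. *IL6ST* was at 21.4 TPM in Rep1 against 159 TPM in Rep2, and *LIFR* at 5.22 and 73.0 TPM. *CNTFR* was therefore 3.02 times the level of *IL6ST* and 12.4 times that of *LIFR* in Rep1, but 0.0678 and 0.148 times in Rep2. The order of *IL6ST* above *LIFR* was the same in both libraries, at 4.10 and 2.18 times. The libraries thus disagree on which subunit of the CNTF receptor was scarcest, *LIFR* in Rep1 and *CNTFR* in Rep2. As with *BDNF*, the higher *CNTFR* of Rep1 stands beside the same photoreceptor markers and the same 3 of 6 neuronal markers, whose part was not tested.

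*GDNF* (chromosome 6, 37664534 to 37692642, minus strand) was likewise at 0 in Rep1, and its Rep2 level was 1.77 TPM. Of the 200 genes closest to it in Rep2, 51.0% were at 0 in Rep1. An uncharacterized protein-coding gene lies on the opposite strand over 3413 bases of *GDNF*, introns included. An overlap of exons was not checked here either, and any reads from that stretch could not be told apart. Its co-receptor *GFRA1* was at 0.45 TPM in Rep1 against 12.9 TPM in Rep2. The kinase *RET* was at 0 in Rep1 and 0.495 TPM in Rep2, whereas *NCAM1*, the other route for GDNF, was at 91.1 and 96.5 TPM. Both libraries therefore held *NCAM1* far above *RET*.

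**Figure D2:**
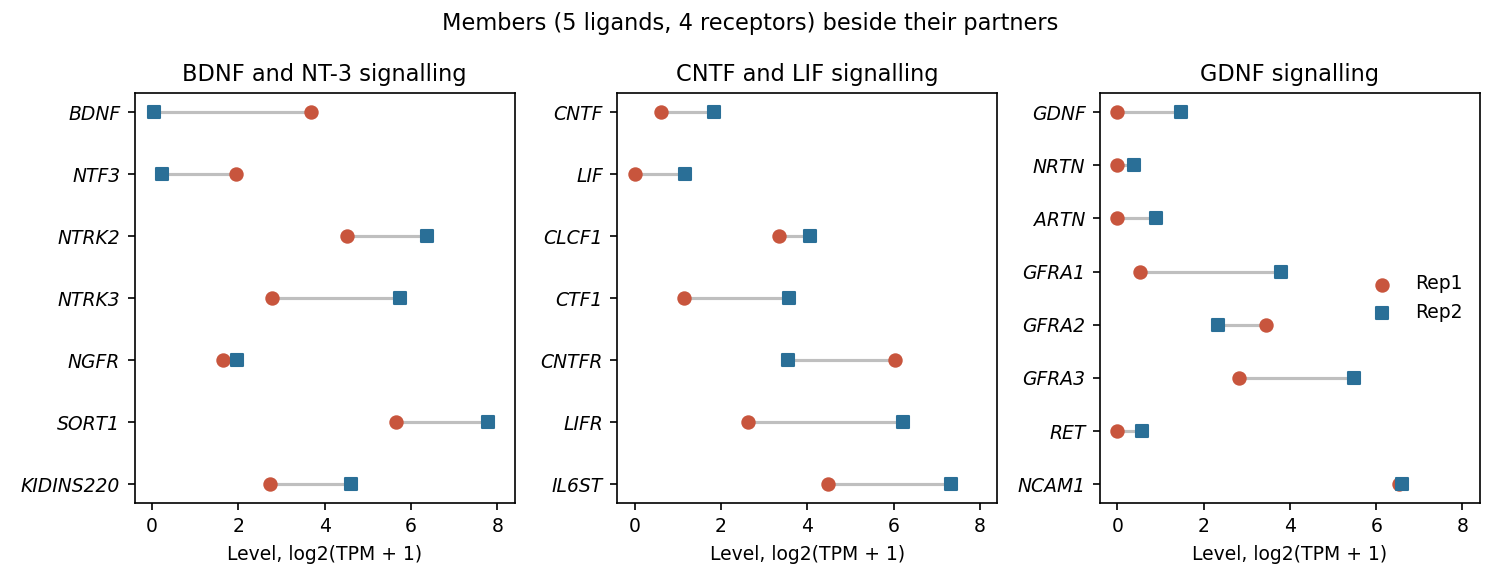
Levels on the log2(TPM + 1) scale of the ligands and receptors of 3 signalling systems, with Rep1 as red circles and Rep2 as blue squares joined by a grey line. *NCAM1* and *NGFR* have nearly the same deposited level in both libraries, whereas *CNTFR* is higher in Rep1 and its partners *LIFR* and *IL6ST* are higher in Rep2.

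Ordered by mean deposited TPM, the genes ran from *NTRK2* through *CNTFR*, *NTRK3*, *BDNF*, *NGFR*, *CNTF*, *NTF3* and *GDNF* to *LIF*. The receptors summed to 94.5 TPM in Rep1 against 148 TPM in Rep2, and the ligands to 15.1 and 5.79 TPM, most of the ligand sum in Rep1 being *BDNF*. None of the 8 pairs of neighbours in this order was set apart, since the values of the 2 libraries overlapped in each of them. When the gap was measured against the SD of a single library, estimated over 200 genes of similar level, *NTRK3* stood above *BDNF* by 1.34 SDs and the other gaps were under 1 SD. Farther apart in the order, 18 of the 36 pairs of members had values that did not overlap, and 23 pairs had the same order in both libraries. *NTRK2* and *NTRK3* were above *NGFR*, *CNTF*, *NTF3*, *GDNF* and *LIF* in both libraries without overlap, and *CNTFR* was as well.

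Of the 9, 7 were above 0 in both libraries, beside 60.9% of all listed genes, and 2 were at 0 in Rep1 alone, beside 26.6%. The median of the mean levels was 2.53 TPM for the members and 6.44 TPM for all listed genes.

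The members did not share a direction between the libraries. Differences are given as log2(TPM + 1), a scale on which low genes appear to differ less than they do. *NTRK3* was higher in Rep2 by 2.96, *NTRK2* by 1.85, *GDNF* by 1.47, *CNTF* by 1.22 and *LIF* by 1.18, which makes 5 of 9 genes at least 2-fold higher there, beside 45.2% of all listed genes. The differences were -3.63 for *BDNF*, -2.48 for *CNTFR* and -1.72 for *NTF3* (Rep2 minus Rep1), so 3 of 9 were at least 2-fold higher in Rep1, beside 13.0% of listed genes. *NGFR* differed by 0.31. None of the 9 differences passed 1.32 times the SD of the differences in the 200 nearest genes, the value of *NTRK3*. The difference was -1.30 times this SD for *BDNF*, 1.11 times for *GDNF*, -1.04 times for *CNTFR* and 1.08 times for *LIF*. This SD was taken about 0, so it includes the general shift toward Rep2. It thus does not show how far *BDNF*, *CNTFR* and *NTF3*, which go against that shift, stand from genes of similar level. The median difference was 1.18 for the members, 0.74 for all listed genes and 1.07 for genes that either library held above 0.

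**Figure D3:**
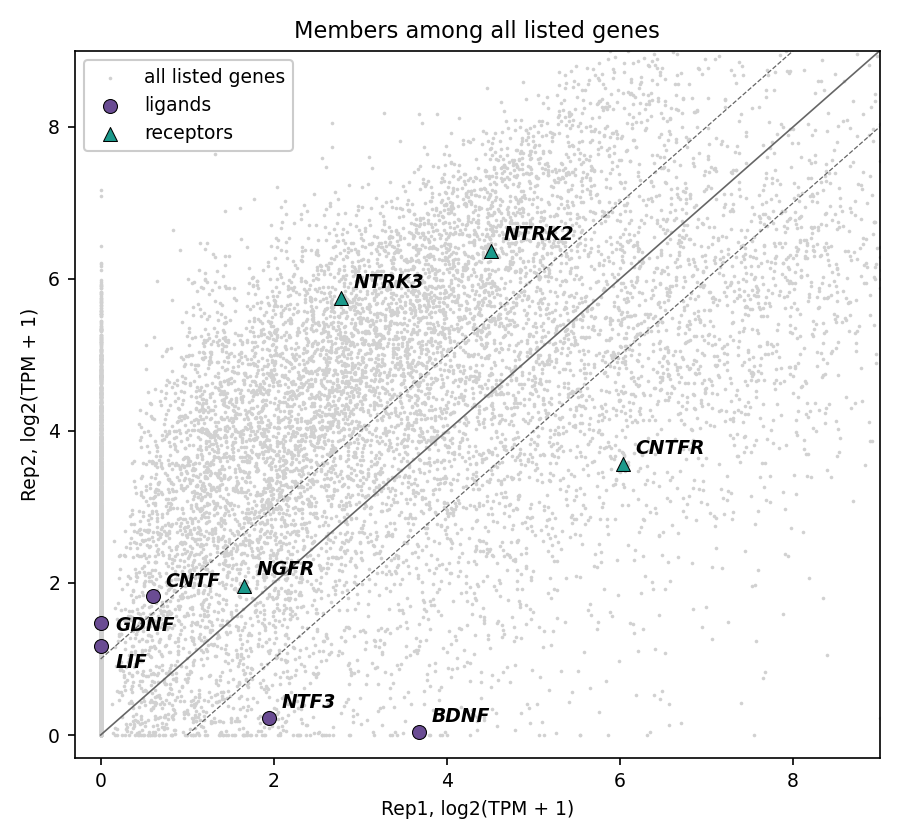
TPM in Rep1 (x axis) and Rep2 (y axis) on the log2(TPM + 1) scale for all listed genes (grey), ligands (purple circles) and receptors (green triangles), with the line of equal level and dashed lines at a 2-fold difference. The axes end at 9, which leaves out 475 genes and no member, and 3 members lie below the lower dashed line, 5 above the upper one and *NGFR* between them, with *CNTF*, *NTRK2* and *NGFR* changing side of the line of equal level when Rep1 is scaled to nerve markers.

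Most genes were higher in Rep2, so the differences were also taken after scaling the libraries by the median of ratios, which removes the shift of 1.19. *BDNF* then differed by -4.20, *CNTFR* by -3.60 and *NTF3* by -2.25, and the same 3 genes were at least 2-fold higher in Rep1, beside 20.9% of listed genes. *NTRK3* at 1.86 and *GDNF* at 1.12 were at least 2-fold higher in Rep2, beside 29.8%, while *LIF* was at 0.87, *NTRK2* at 0.69 and *CNTF* at 0.59. The split of 5 against 3 thus became 2 against 3, and *NGFR* turned from 0.31 to -0.54. Rep1 was also scaled by 5.41, from the median log2 ratio of 16 oligodendrocyte and astrocyte markers between the libraries. This did not bring each marker level, since their deposited differences ran from -1.26 for *SOX9* to 6.55 for *AQP4*. *CNTF* at -0.11, *NTRK2* at -0.53 and *NGFR* at -1.69 were then higher in Rep1, and *NTRK3* stayed higher in Rep2 at 0.71. The direction of *NTRK2*, *CNTF* and *NGFR* between the libraries therefore depended on the scaling. *BDNF*, *CNTFR* and *NTF3* were higher in Rep1 under each of these scalings. Both scalings raise Rep1 against Rep2, so a gene already higher in Rep1 could not change direction. Their unchanged direction therefore says nothing about stability.

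**Figure D4:**
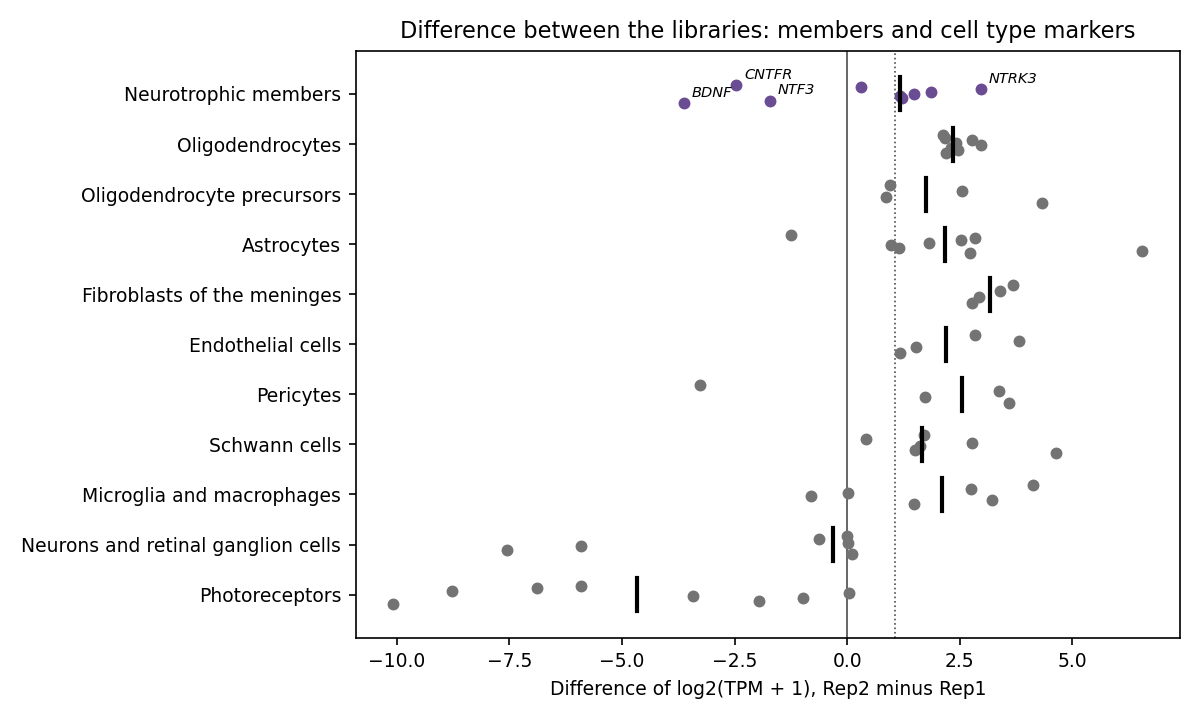
Difference of log2(TPM + 1) between the libraries (Rep2 minus Rep1, x axis) for the 9 members and for the genes of 10 marker lists, one point per gene, with the list median as a black bar, 0 as a solid line and the median of genes above 0 as a dotted line. The members spread from -3.63 to 2.96, all oligodendrocyte markers lie above 0, and 7 of 8 photoreceptor markers lie below it.

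The median differences of the marker lists (Rep2 minus Rep1) frame these values. They were 2.36 for oligodendrocytes, 1.75 for their precursors, 2.17 for astrocytes, 2.11 for microglia and macrophages, 3.16 for fibroblasts of the meninges, 2.18 for endothelial cells, 2.55 for pericytes and 1.66 for Schwann cells. The median was -0.31 for neurons and retinal ganglion cells and -4.66 for photoreceptors. *NTRK3*, at 2.96, and *NTRK2*, at 1.85, were within the range of the first 8 medians. *GDNF* at 1.47, *CNTF* at 1.22, *LIF* at 1.18 and *NGFR* at 0.31 were below all of those 8. *BDNF*, *CNTFR* and *NTF3* had the sign of the last 2 medians, though the neuronal list was itself split, with 3 markers higher in Rep1 and 2 in Rep2. The markers were compared as lists only, and no cell type was assigned to a member.

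The wider pathway was followed in 5 lists of 50 further genes, of which 48 were listed. Of these, 20 were at least 2-fold higher in Rep2 and 6 in Rep1, shares close to those of all genes given above. Among partners of Trk and p75, *SORT1*, which pairs with p75 to bind proneurotrophins, was far above the p75 it pairs with, at 49.1 TPM in Rep1 against 221 TPM in Rep2. It was 2.25 and 2.71 times the level of *NTRK2*. *NTF4*, another ligand of TrkB, was at 0 in Rep1 and 0.417 TPM in Rep2.

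In the CNTF and LIF family, 9 of 11 further genes were at least 2-fold higher in Rep2, beside 45.2% of all listed genes, and 1, *OSM*, in Rep1, beside 13.0%. After the median of ratios, 6 of the 11 were at least 2-fold higher in Rep2, beside 29.8%, and with Rep1 scaled to the nerve markers 5 were. No share of all listed genes was computed for the marker scaling. Some other ligands of this family were more abundant than *CNTF* itself in both libraries. *CLCF1* was at 9.19 TPM in Rep1 against 15.8 TPM in Rep2. *CTF1*, the gene of cardiotrophin, was at 1.20 and 11.0 TPM, from at least 2 and 313 reads. In Rep1 *CNTF* came from at least 1 read, so the order of *CTF1* above it there can rest on few reads. Of the 9 further genes of the GDNF family, 3 were at least 2-fold higher in Rep2, beside 45.2% of all listed genes, and 1, *GFRA2*, in Rep1, beside 13.0%. After the median of ratios the counts were 2 and 2, beside 29.8% and 20.9%. *GFRA3*, the co-receptor of artemin, was at 6.12 and 43.9 TPM and the highest of the GFRA genes on the mean, whereas *ARTN* was at 0 in Rep1 and 0.877 TPM in Rep2.

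Of 7 listed genes for enzymes that process proneurotrophins, 4 were at least 2-fold higher in Rep2, beside 45.2% of all listed genes, and 0 in Rep1, beside 13.0%. After the median of ratios the counts were 3 and 0, beside 29.8% and 20.9%, and with Rep1 scaled to the nerve markers 0 and 1. *FURIN* was at 3.36 TPM in Rep1 against 19.8 TPM in Rep2, and *PLAT*, which activates plasminogen to plasmin, at 10.7 and 56.8 TPM. *PCSK1* and *PLG* were at 0 in both. Below the receptors, 2 of 10 genes were at least 2-fold higher in Rep2, beside 45.2%, and 2 in Rep1, beside 13.0%. These counts became 1 and 5 after the median of ratios, beside 29.8% and 20.9%, and 1 and 9 with Rep1 scaled to the nerve markers. *STAT3*, the transcription factor downstream of *IL6ST*, was at 155 and 137 TPM, nearly level in deposited TPM only, since both scalings raise Rep1. *JAK1* was at 331 and 181 TPM. *SOCS3*, the feedback inhibitor that STAT3 induces, was at 313 TPM in Rep1 against 18.4 TPM in Rep2, from at least 489 and 494 reads.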

How the data were processed

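RNA from macaque optic nerves was made into libraries with a kit for small RNA amounts (SMARTer v4 Ultra Low Input), which amplifies cDNA and does not mark strand. The authors trimmed reads with Trim Galore 0.6.6 after FastQC 0.11.9, aligned them to Mmul_10 with STAR 2.7.1a, counted them per gene with featureCounts 1.5.3 and deposited TPM for 2 libraries, each summing to 1000000. Gene lengths, the strand setting and the treatment of reads with several alignments are not given in the sources used here, and TPM keeps no read totals. Nothing pairs the columns Rep1 and Rep2 with a sample title, so they served as replicates of 1 group.

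Values were analysed in Python 3.11 with numpy 2.4.6 and pandas 2.3.3 and drawn with matplotlib 3.10.9. Differences were taken on log2(TPM + 1), with a pseudocount of 1. Smallest read numbers came from the ratio of a gene's values, with a tolerance of 1e-12 and a product under 100000000, and are lower bounds. No confidence interval can be had from TPM. Symbols, coordinates and coding sequences came from the RefSeq annotation of Mmul_10, which held all 16684 symbols. The read numbers, the SD over nearest genes, the median of ratios and the 2-fold counts were tested on simulated data. The SD was tested there only without a shift between libraries and at levels above those of most members. Marker scaling, the scaling without the most abundant genes, percentiles and shares of genes at 0 were not tested in this way. The members and lists were chosen with earlier results of these data known. The genes named are the 9 members and, of the pathway lists, those with a mean of at least 1 TPM. *SNAP25*, *SYT1* and *RBPMS* are markers that carry a sum. *ARTN*, *CDNF*, *NTF4*, *PCSK1*, *PLG*, *POU4F1*, *RET* and *SLC17A6*, which lie below that mean, were named after their values were seen. Some listed genes are counted with their lists but not reported here. Alternatives were other scalings, a pseudocount of 0.1, the geometric mean, a filter at 1 TPM, other spreads and each library alone.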

Additional observations from a re-analysis of the deposited data

How the results depend on the processing

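No paired analysis was possible because a second condition is lacking. Without replicate 1 or without replicate 2, each mean becomes the value of the other library, which is given for every gene above and always lies within 1 SD of the mean, so this says nothing about stability. Scaling Rep1 by the median ratio of the glial markers multiplies it by 5.41. The mean was then 31.8 TPM for *BDNF*, 7.76 for *NTF3*, 99.8 for *NTRK2*, 7.26 for *NGFR* and 180 for *CNTFR*. The log2 difference (Rep2 minus Rep1) was then -3.81 for *NTF3* and -4.89 for *CNTFR*, and it changed sign to -0.11 for *CNTF*, -0.53 for *NTRK2* and -1.69 for *NGFR*, which raised the genes at least 2-fold higher in Rep1 from 3 to 4. Without the 10 most abundant genes the mean of *NGFR* was 3.20 TPM. With a pseudocount of 0.1 the difference was -6.53 for *BDNF*, 3.77 for *LIF* and 4.23 for *GDNF*, as low genes spread wider on that scale. Of the 5 genes at least 2-fold higher in Rep2, 2 were so after the median of ratios and 2 after marker scaling, and 3 had a mean of at least 1 TPM. Of 7 genes above 0 in both libraries, 4 were at 1 TPM or more in both. Marker scaling set 3 neighbouring pairs of members apart and the SD of the 200 or 500 nearest genes set 1 apart, against 0 by the ranges. The remaining 68 values of means, differences and counts stayed within the spread or the 1.5 times set for them. Some of these could not have moved. The geometric mean of 2 libraries always lies within 1 SD of the mean, and marker scaling cannot change *LIF* and *GDNF*. The 68 also include *NGFR* at -0.54 after the median of ratios and at -1.69 after marker scaling. A change of sign was counted only for deposited differences of at least 2-fold. The number 68 therefore says nothing about stability. The depth of Rep1 limits *LIF* and *GDNF*, which are at 0 there. The scaled counts of the pathway lists were chosen after seeing the data.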

Other observations

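Several trophic factors outside the neurotrophin, CNTF and GDNF families were more abundant in both libraries than any of the 5 ligands described above. Of 12 such genes, 6 were at least 2-fold higher in Rep2, beside 45.2% of all listed genes, and 2 in Rep1, beside 13.0%. After the median of ratios the counts were 3 and 4, beside 29.8% and 20.9% of all listed genes. *PTN*, a heparin-binding factor of glia and vessels, was at 127 TPM in Rep1 against 734 TPM in Rep2, and its relative *MDK* at 29.6 and 114 TPM. *FGF1* was at 28.3 and 225 TPM, and *PSAP*, the precursor of the saposins, at 164 and 716 TPM. *VEGFA*, the main growth factor of vessels, was at 139 TPM in Rep1 against 89.8 TPM in Rep2. *FGF9* was at 63.0 TPM in Rep1 against 9.97 TPM in Rep2, a difference of -2.54 on the log2(TPM + 1) scale (Rep2 minus Rep1) that lies close to the -2.48 of *CNTFR*. *CDNF* was at 0 in Rep1 and 1.58 TPM in Rep2. These levels were not compared between conditions, since there is 1 condition, and no explanation of them was tested.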
